A study of Mus musculus with 18 samples.

Results

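The lysozyme pair of the mouse consists of Lyz1 (ENSMUSG00000069515) and Lyz2 (ENSMUSG00000069516), taken by gene symbol from the authors' deposited tables of differential expression, 5 in number. These are 2 of the 2202 genes listed in any table, and both were listed in 4 of the 5 tables. The pair was selected on its measured normalised reads in these comparisons, so its levels and fold changes are given as a description and the test behind them is the authors' own. The series holds 18 mouse samples in 9 groups of 2, sequenced as polyadenylated RNA. The groups used here were splenic B cells and splenic T cells of wild-type and Beclin 2 KO mice aged 8 weeks, wild-type and KO lymph nodes, and lymphomas of KO mice, all unstimulated. For lymph nodes and lymphoma no age was given. The strain was C57BL/6 on every label. Beclin 2, encoded by Becn2, is related to Beclin 1, a protein of autophagy, and the labels describe neither the KO allele nor its breeding. How pure the B and T cell preparations were is not given either. Since the labels name no mouse for a sample, the spread within a group may be technical. Macrophages cultured from bone marrow and treated with lipopolysaccharide were not analysed here.

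Lysozyme is a secreted enzyme that cuts peptidoglycan in bacterial cell walls. The mouse carries a duplicated lysozyme gene. Lyz2, also called lysozyme M, is made by macrophages, monocytes and neutrophils, and Lyz1, also called lysozyme P, is best known as a product of Paneth cells in the small intestine. Neither is a product typical of B or T lymphocytes.

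The copies lie next to each other on the minus strand of chromosome 10 in GRCm38. Lyz2 spans chr10:117277331-117282321 and Lyz1 spans chr10:117287797-117292868 in GENCODE M21, with 5475 bases between them. Each has 4 exons, a transcript of 1316 (Lyz2) or 1263 (Lyz1) bases and a coding sequence of 447 bases with the stop codon. The first 300 coding bases, which hold 20 of the 22 differences, are printed 5′ to 3′ because a read can be assigned to a copy only where it covers a base that differs; capitals mark those bases.
Lyz1 coding: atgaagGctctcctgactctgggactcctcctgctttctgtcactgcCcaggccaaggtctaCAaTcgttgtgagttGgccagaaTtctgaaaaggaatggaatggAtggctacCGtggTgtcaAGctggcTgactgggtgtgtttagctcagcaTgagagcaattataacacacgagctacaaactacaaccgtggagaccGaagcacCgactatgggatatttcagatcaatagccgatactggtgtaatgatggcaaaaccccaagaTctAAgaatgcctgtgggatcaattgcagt
Lyz2 coding: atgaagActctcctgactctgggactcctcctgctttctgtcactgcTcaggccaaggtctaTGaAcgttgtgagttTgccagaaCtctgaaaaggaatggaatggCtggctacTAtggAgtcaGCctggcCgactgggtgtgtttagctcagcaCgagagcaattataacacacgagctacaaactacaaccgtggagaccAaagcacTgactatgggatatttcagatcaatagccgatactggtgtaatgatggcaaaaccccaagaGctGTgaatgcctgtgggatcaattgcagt
The coding sequences differed at 22 of 447 positions (95.1% identity), with 6, 6 and 10 of the differences at the consecutive positions of the codon. The longest identical run in them was 118 bases. Over the whole transcript 1211 of 1262 aligned bases were identical (96.0%), and after the stop codon 756 of 785 (96.3%).

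Windows of sequencing-read size show how far the copies can be separated. Of the Lyz2 windows of 50 bases 15.4% occur without a mismatch in Lyz1, of those of 100 bases 1.97%, and of those of 150 bases 0 of 1167. Within 2 mismatches, the share was 60.4% at 50 bases, 25.3% at 100 and 7.71% at 150. From the Lyz1 side the shares without a mismatch were 16.1%, 2.06% and 0 of 1114. No transcript of another gene in GENCODE M21 held a window of 50 bases of either copy. Read length, aligner and the treatment of reads that fit both copies are not given in the sources used here. The division of reads between the copies is therefore uncertain to an extent that was not tested. The sum of the copies does not depend on that division, though it would lack any read that was discarded for fitting both.

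**Figure D1:**
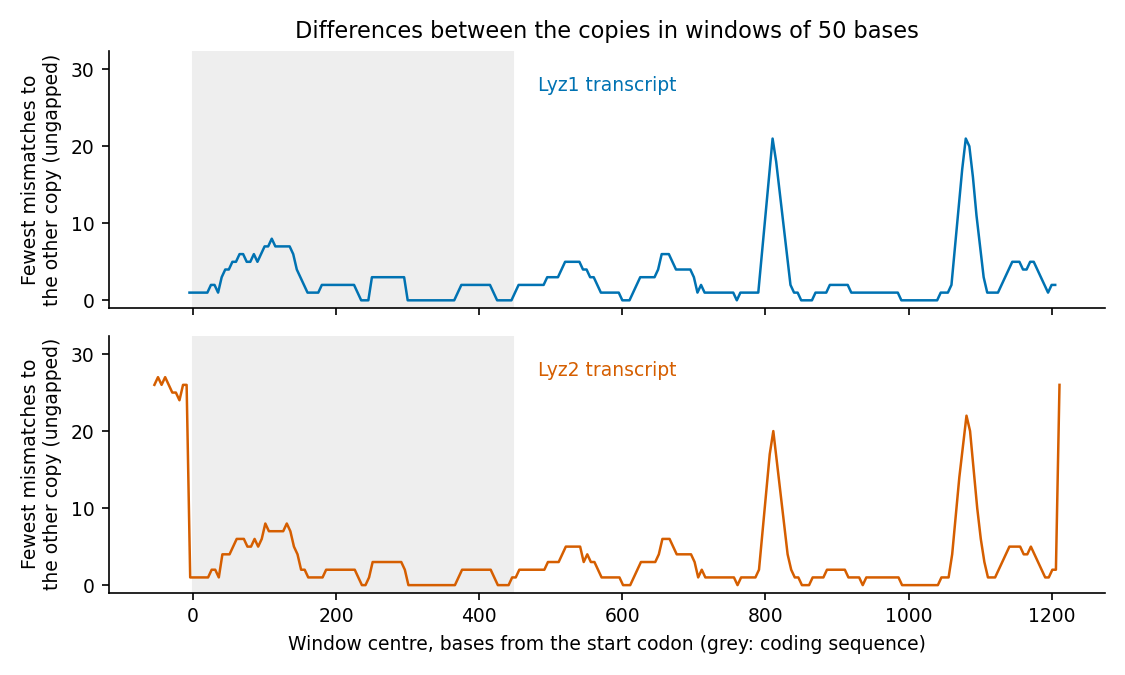
Fewest mismatches between each window of 50 bases of one copy's transcript and the best ungapped match in the other copy (vertical axis), by the distance of the window's centre from the start codon in bases (horizontal axis); grey marks the coding sequence of 447 bases. Stretches at 0 cannot be told apart, and the tall peaks are windows that span an insertion or the transcript ends.

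Upstream of the genes the copies are less alike. The window from 250 to 51 bases before the RefSeq start is shown for comparison with the transcripts (RefSeq, GRCm38.p6, minus strand, 5′ to 3′), at chr10:117292919-117293118 for Lyz1 and chr10:117282323-117282522 for Lyz2. Capitals mark bases that differ from, or have no partner in, the other copy.
Lyz1 upstream: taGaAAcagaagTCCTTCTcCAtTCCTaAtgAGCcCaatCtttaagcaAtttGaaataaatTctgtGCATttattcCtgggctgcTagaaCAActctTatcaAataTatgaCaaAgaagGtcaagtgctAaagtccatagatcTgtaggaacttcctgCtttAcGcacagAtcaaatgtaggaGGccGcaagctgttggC
Lyz2 upstream: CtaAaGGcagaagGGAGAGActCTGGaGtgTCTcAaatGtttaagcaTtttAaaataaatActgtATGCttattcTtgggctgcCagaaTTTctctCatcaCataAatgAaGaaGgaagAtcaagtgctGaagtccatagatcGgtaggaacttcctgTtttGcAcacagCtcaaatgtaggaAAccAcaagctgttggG
Of 198 aligned bases 150 were identical (75.8%). The bases nearest the RefSeq start are not in these windows. In GENCODE M21 Lyz2 starts further upstream, at 117282321, close to its window, while Lyz1 starts at 117292868 in both annotations. The windows therefore lie at unequal distances from the GENCODE starts.

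In B cells of KO mice Lyz2 was far lower and Lyz1 higher than in wild type. The whole reads behind the deposited means were recovered for every group. Lyz2 had 2120 and 1492 reads in the wild-type libraries and 29 and 3 in the KO libraries. Lyz1 had 4 and 7 reads in wild type and 67 and 77 in KO. For neither copy did a KO library reach the wild-type range, and the KO libraries were unequal for Lyz2. How many of all genes separate in this way, here or in the other tissues, is not known, as only called genes are listed. In bulk preparations fewer cells of a type and less mRNA per cell cannot be told apart. In the authors' deposited table the mean of Lyz2 was 1632 normalised reads in wild type and 17.4 in KO, a log2 fold change of -6.55, and that of Lyz1 was 5.17 and 78.7, a log2 fold change of 3.93. The authors' DESeq adjusted p was 4.85e-72 for Lyz2 and 7.97e-07 for Lyz1, in a table that called 1.24% of the genes tested.

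In T cells of KO mice Lyz2 was likewise lower and Lyz1 higher than in wild type. Lyz2 had 307 and 366 reads in the wild-type libraries and 5 and 10 in the KO libraries. Lyz1 had 15 and 11 reads in wild type and 113 and 93 in KO. Again no KO library lay within the wild-type range. The means in the authors' deposited table were 355.7 and 7.27 normalised reads of Lyz2 in wild type and KO (log2 fold change -5.61), and 13.3 and 98.6 of Lyz1 (2.89). Their DESeq adjusted p was 1.82e-09 for Lyz2 and 5.91e-07 for Lyz1, where 2.35% of the genes tested were called.

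Lymph nodes had far more lysozyme reads, in a table normalised separately from those of the lymphocytes. Lyz2 had 30787 and 28705 reads in the wild-type libraries and 121 and 451 in the KO libraries. Lyz1 had 4612 and 3464 reads in wild type and 22916 and 16569 in KO. Lyz2 was thus the major copy in wild-type nodes and Lyz1 in KO nodes, with no overlap of libraries. From the means in the authors' deposited table the log2 fold change was -6.66 for Lyz2 and 2.19 for Lyz1. They ranked first and second by p among the 105 listed genes, with DESeq adjusted p of 1.2164e-273 and 3.4092e-42, and 0.475% of the genes tested were called.

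Lymphoma tissue from KO mice resembled KO lymph node in the division of the pair. Lyz2 had 131 and 179 reads and Lyz1 16721 and 19464 in the tumour libraries. Against wild-type lymph node the means in the authors' deposited table gave a log2 fold change of -7.75 for Lyz2, the largest fall among its 1587 genes with a finite fold, and 2.00 for Lyz1, where 7.38% of the genes tested were called. The adjusted p of Lyz2 is printed as 0 there and that of Lyz1 as 3.3997e-15. This comparison uses the same wild-type node libraries as the one above.

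**Figure D2:**
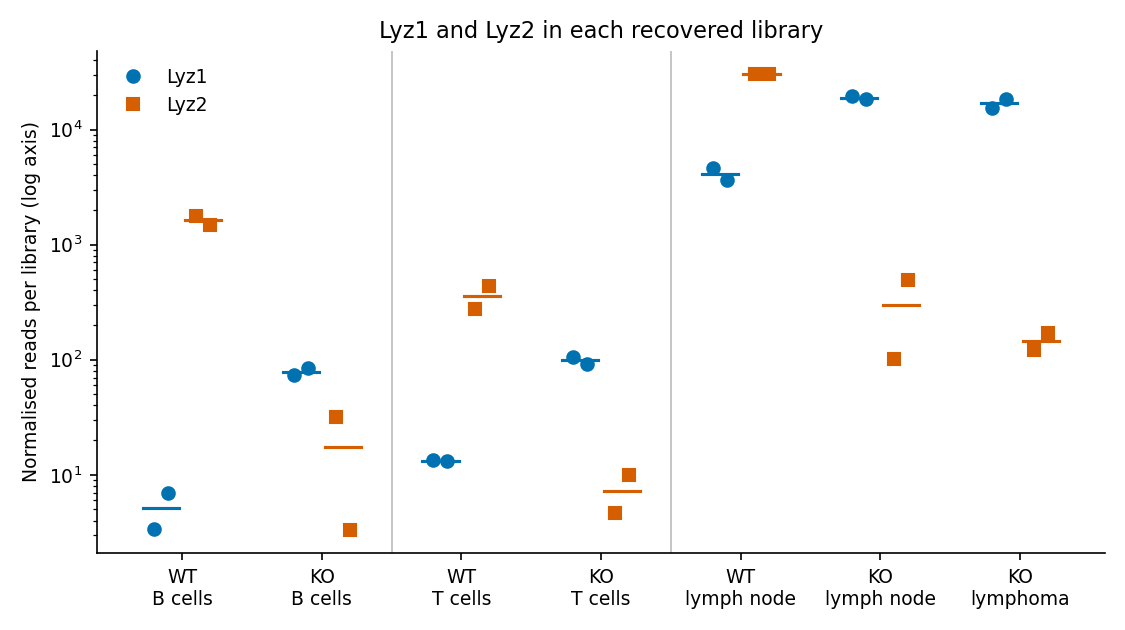
Normalised reads of Lyz1 (circles) and Lyz2 (squares) in each of the 2 recovered libraries of a group, on a log axis, with the group mean as a line; WT is wild type and KO is Beclin 2 KO. Lyz2 lies above Lyz1 in every wild-type library and below it in every KO library; the lines part sets of tables that were normalised separately, and the lymphoma values come from the table against wild-type lymph node.

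Neither copy was listed in the authors' table of lymphoma against KO lymph node, in which 1.77% of the genes tested were called, so they were not among the genes called there. The reads of both groups are known from the other tables and were scaled with the size factors recovered from this one. Lyz1 then had a mean of 17563 normalised reads in lymphoma and 19869 in KO node, a log2 fold change of -0.18. Lyz2 had 150.7 and 316.7, a log2 fold change of -1.07, and its libraries overlapped. That difference rested on the KO node library with 451 reads, without which the log2 fold change was 0.48.

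The division of the pair changed in every tissue. Lyz2 took 99.8% and 99.5% of the pair's reads in the wild-type B cell libraries, with exact 95% Clopper-Pearson intervals from 99.5% to 99.9% and from 99.0% to 99.8%. It took 95.3% and 97.1% in wild-type T cells and 87.0% and 89.2% in wild-type lymph nodes. In KO libraries its share was 30.2% (21.3% to 40.4%) and 3.75% (0.780% to 10.6%) in B cells. It was 4.24% (1.39% to 9.61%) and 9.71% (4.75% to 17.1%) in T cells, 0.525% and 2.65% in lymph nodes, and 0.777% and 0.911% in lymphoma. These intervals cover counting error only.

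Wild-type tissues also differed from each other in the minor copy. Lyz1 made up 0.188% and 0.467% of the pair in B cells, 4.66% and 2.92% in T cells, and 13.0% and 10.8% in lymph nodes, with no overlap between tissues. In KO samples the minor copy was Lyz2. Its share overlapped between B and T cells and between lymph node and lymphoma. Every KO lymphocyte library lay above every KO node and lymphoma library, but counting error limits this separation. The exact intervals of the KO libraries at 3.75% in B cells and 4.24% in T cells ran down to 0.780% and 1.39%. The higher KO node library was at 2.65%. Per kilobase of transcript, which allows the copies to be compared, wild-type lymph node had a mean of 23090 normalised reads of Lyz2 and 3257 of Lyz1, and KO lymph node 227.7 of Lyz2 and 14899.5 of Lyz1. The corresponding values were 1240 and 4.09 in wild-type B cells and 13.3 and 62.3 in KO B cells, and 270.3 and 10.5 in wild-type T cells and 5.52 and 78.0 in KO T cells.

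The sum of the copies was lower in KO than in wild type in all 3 sources, by unequal amounts. In B cells it was 1637 normalised reads in wild type and 96.2 in KO, a log2 fold change of -4.09. In T cells it was 369.0 and 105.8, a log2 fold change of -1.80. In lymph nodes it was 34499 and 19118, a log2 fold change of -0.85, and in lymphoma against wild-type node 17157 against 35618, a log2 fold change of -1.05. KO libraries did not overlap wild-type libraries in any of these sums. With 2 libraries a group such a separation says little by itself, and its share over all genes is not known.

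Lyz1 thus rose by less than Lyz2 fell when both are counted in normalised reads. The rise of Lyz1 was 4.56% of the fall of Lyz2 in B cells, 24.5% in T cells and 48.9% in lymph nodes. The KO sum was 5.87%, 28.7% and 55.4% of the wild-type sum. The difference between tissues in these shares was not tested, since each rests on 2 libraries a group.

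**Figure D3:**
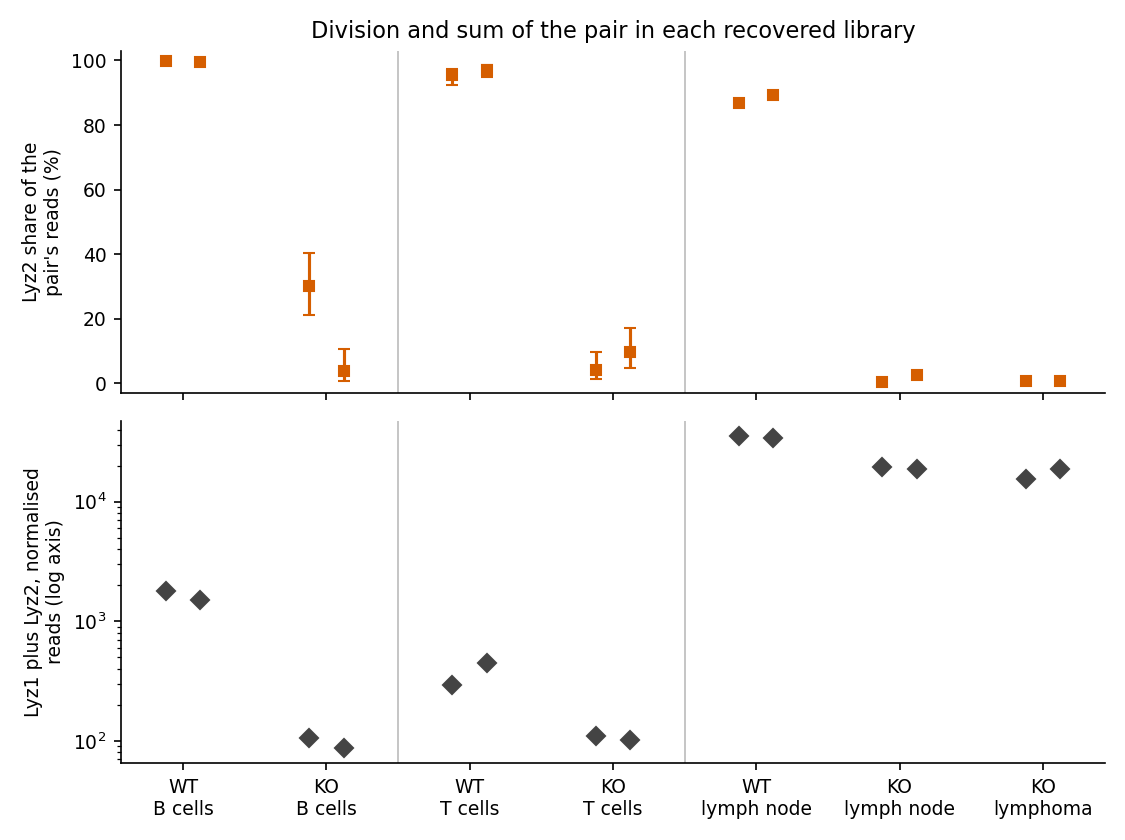
Share of Lyz2 in the reads of the pair, in percent, with exact 95% binomial intervals (top), and the sum of both copies in normalised reads on a log axis (bottom), for each of the 2 recovered libraries of a group. The share was at least 87.0% in every wild-type library and at most 30.2% in every KO library, and the sum was lower in the KO libraries of each tissue.

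With 1 library left out at a time the directions of both copies and of the sum held in the 4 tables that list the pair. The log2 fold change of Lyz1 then ran from 3.49 to 4.55 in B cells, from 2.79 to 2.98 in T cells, from 2.04 to 2.37 in lymph nodes and from 1.84 to 2.18 in lymphoma against wild-type node. That of the sum ran from -4.22 to -3.96, from -2.08 to -1.46, from -0.88 to -0.82 and from -1.19 to -0.93. The widest range was that of Lyz2 in B cells, from -8.95, without the KO library with 29 reads, to -5.69, without the one with 3. In T cells it was -6.26 to -5.17, in lymph nodes -8.21, without the KO library with 451 reads, to -5.93, without the one with 121, and in lymphoma -8.02 to -7.52.

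The KO libraries with more Lyz2 were also compared over other genes that were far lower in KO. In KO B cells Lyz2 was 9.61 times higher in one library than in the other, in normalised reads. Of 10 other genes at least 8-fold lower in KO (log2 fold change of -3 or less) with a wild-type mean of at least 50 and recovered KO reads above 0, 5 were higher in the same library. In KO lymph nodes the ratio was 4.86, and 9 of 17 such genes were higher in the same library. In KO T cells the ratio was 2.12, with 5 of 12 genes, and in lymphoma 1.41, with 16 of 71.

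**Figure D4:**
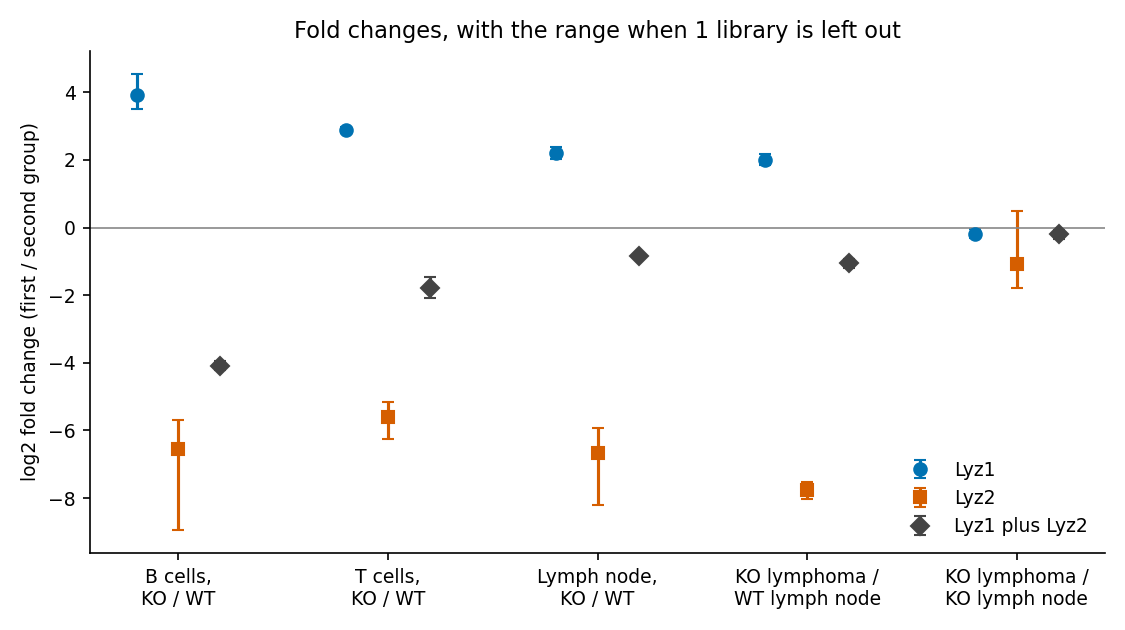
Log2 fold changes of Lyz1 (circles), Lyz2 (squares) and their sum (diamonds) in the 5 comparisons, with bars from the lowest to the highest value when 1 recovered library is left out. Lyz1 lies above 0 and Lyz2 and the sum below 0 in the 4 tables that list the pair, and the bar of Lyz2 crosses 0 in lymphoma against KO lymph node.

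A small number of genes on the phagocyte lists were called in B cells, in both directions. Which cells their mRNA came from was not tested. In that comparison 2 of 44 genes of a monocyte and macrophage list were called, Cybb, the catalytic subunit of the phagocyte oxidase, higher (log2 fold change 0.74, computed like all those below from the means in the authors' deposited table) and the nuclear receptor Nr4a1 lower (-1.10). The table called 1.24% of the genes tested, 0.493% as higher and 0.751% as lower. Whether the lists held more called genes than that share was not tested. Il1r2, the decoy receptor of interleukin 1, was the 1 called gene of a list of 31 neutrophil genes there (3.03), and no gene of 22 dendritic cell genes was called by the authors' DESeq test. The levels of the uncalled markers are not given by the table, and neither is a count at an unadjusted p under 0.05. Of 31 antimicrobial and lysosomal genes, Cybb and the lysosomal enzyme gene Gla (-1.43) were called. Of 20 B cell markers Fcer2a (-0.93) was called, and of 20 T cell markers none.

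In T cells 16 of 44 monocyte and macrophage genes were called, all of them higher in KO, where 1.67% of the genes tested were called higher and 0.676% lower. They included the Fc receptor Fcgr4 (log2 fold change 2.25), the sialic acid receptor Siglec1 (2.47), the macrophage protein Cd5l (1.67) and Cybb (1.15). Their median was 1.44, beside 1.14 over all 587 listed genes. Of 31 neutrophil genes 8 were called, all higher, among them the granule enzymes Elane (3.17) and Mpo (2.69). All 11 called antimicrobial and lysosomal genes were higher, of which 4 are also on the neutrophil list and 1 on the macrophage list. The 2 called genes of the dendritic cell list, Ccr9 (-0.71) and Itgae (-0.62), were lower. Which cells of the preparation their mRNA came from was not tested. The 2 called T cell markers, Cd8b1 (-0.71) and Trbc1 (-0.59), were lower too. The B cell markers Ighm (1.95) and Pou2af1 (0.91) were higher. The summed level of the 14 macrophage genes with reads recovered in both groups was 4297 and 8974 normalised reads in the wild-type libraries and 16336 and 19804.5 in KO. The sum of Lyz1 and Lyz2 was lower in the same KO libraries, and the part of other cell types in the values of the pair was not tested.

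KO lymph nodes had more mRNA of neutrophil genes. Of 31 on the list 8 were called, all higher, where 0.181% of the genes tested were called higher, and the calprotectin subunits S100a8 (5.06) and S100a9 (3.92) had the smallest adjusted p of the list in the authors' deposited table. The summed level of the 8 was 80.6 and 99.7 normalised reads in the wild-type libraries and 2020 and 1882 in KO. The 3 called macrophage genes, Fcgr4 (3.49), Cd300e (4.60) and Siglec1 (0.65), were higher too. The 5 called antimicrobial genes are all among the 8 neutrophil genes. The 4 called B cell markers, among them Fcer2a (-0.88) and Pax5 (-0.75), and the dendritic cell gene Fscn1 (-0.78) were lower, where 0.294% of the genes tested were called lower. The part of other cell types in the rise of Lyz1 was not tested.

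In lymphoma the called genes of the macrophage, neutrophil and antimicrobial lists went both ways against wild-type lymph node. Of 44 macrophage genes 4 were called higher and 8 lower, where 3.34% of the genes tested were called higher and 4.04% lower. The log2 fold change was 3.36 for Fcgr4 and -3.02 for the scavenger receptor Marco. All 16 called genes of the 22 on the dendritic cell list were lower, such as the chemokine Ccl22 (-4.86) and the actin bundler Fscn1 (-2.73). Of the antimicrobial list 3 were higher and 3 lower, of the neutrophil list 1 and 1, of the B cell list 1 and 5, and of the T cell list 2 and 4. Against KO lymph node 9 macrophage and 8 neutrophil genes were called, all lower, where 0.7% of the genes tested were called higher and 1.07% lower. The log2 fold change was -1.81 for Siglec1 and -3.15 for S100a9. The tumour libraries were unequal. The summed level of the 8 neutrophil genes was 467.3 and 68.1 normalised reads in them and 2125 and 2283 in KO node. That of the 9 macrophage genes was 8924 and 11220.5 in the tumour libraries and 27045 and 34243 in KO node. The 6 called genes of the dendritic cell list and the B cell marker Cr2 (-1.16) were lower too. The 4 called antimicrobial genes are all among those 8 neutrophil genes, and Lyz1, at -0.18, was not listed. The tumour libraries also held 167090 and 439338 reads of Bpifa2, a salivary gland secretory protein, beside 5026 and 196 in KO node and 5513 and 17681 in wild-type node, and its part in the lysozyme values was not tested. The KO node library with more Lyz2 was the one with 196 of these reads.

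No relative of the pair was listed. The 9 other genes of the lysozyme family list were in none of the 5 tables. They are the lysozyme-like genes Lyzl1, Lyzl4, Lyzl6, Spaca3 and Spaca5, the sperm acrosome gene Spaca7, the milk protein gene Lalba and the goose-type lysozymes Lyg1 and Lyg2. Each table called between 0.475% and 7.38% of the genes tested, so a list this short would hold few listed genes in any case. Of 20 Paneth cell genes, Itln1 was the 1 listed, in T cells, where 2.35% of the genes tested were called. Its mean there was 20.6 normalised reads in KO and 0 in wild type. Of the 10 nearest annotated genes on each side of the pair on chromosome 10, 20 in all, none was listed in any table. The protein-coding genes among them are 9530003J23Rik, 38.6 kb below the pair, Yeats4, Frs2, Cct2 and Lrrc10 further below, and Cpsf6, 51.8 kb above it, and Cpm. The rest of the 20 are noncoding RNAs and pseudogenes. At the shares of genes called in each table few of 20 would be listed, so their absence says little about the region.

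Genes whose changes resembled those of the pair were sought over the tissues. In the comparisons of KO with wild type in B cells, T cells and lymph node, which share no library, 30 genes were listed in all 3, each in the same direction in all 3, with 5 higher and 25 lower. Without receptor segments, predicted and unnamed genes 14 were left, the pair included, and likeness was ranked among these. By Euclidean distance of the 3 log2 fold changes, the named gene most like Lyz2 was Pydc4, of the interferon-inducible PYHIN family, at a distance of 2.40, with log2 fold changes of -4.75, -4.87 and -5.26 in B cells, T cells and lymph node. Next were BC147527 at 3.41, the netrin receptor Unc5a at 4.03, the protease-activated receptor F2rl1 at 6.42 and the natural killer receptor Klra1 at 6.80. The named gene most like Lyz1 was Xkr6, of the XK family of membrane proteins, at a distance of 1.55, with log2 fold changes of 4.18, 4.27 and 2.84.

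Xkr6 was the 1 other named gene higher in all 3. It had 17 and 10 reads in wild-type and 149 and 253 in KO B cell libraries, 39 and 25 against 541 and 759 in T cells, and 57 and 72 against 470 and 497 in lymph nodes. The next named genes by distance to Lyz1, Epsti1 at 6.94, Pyhin1 at 7.54, Rnf144a at 7.90 and Pydc3 at 8.34, were lower in all 3 and so are not alike in direction. Of the 7 genes left out by name that had a finite fold in all 3, some were nearer. The unnamed gene 2610507I01Rik lay at 1.66 from Lyz2, nearer than Pydc4, with log2 fold changes of -6.00, -6.65 and -7.83, and the antibody segment Ighv14-2 at 2.54. The antibody segment Igkv1-135 lay at 2.36 from Lyz1, with log2 fold changes of 1.89, 2.42 and 1.12, and the predicted gene Gm13456 at 2.59, with 3.23, 3.28 and 4.66, so both were higher in all 3. Becn2, the knocked-out gene, was listed in none of the 5 tables, which therefore give no check of the genotype labels.

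**Figure D5:**
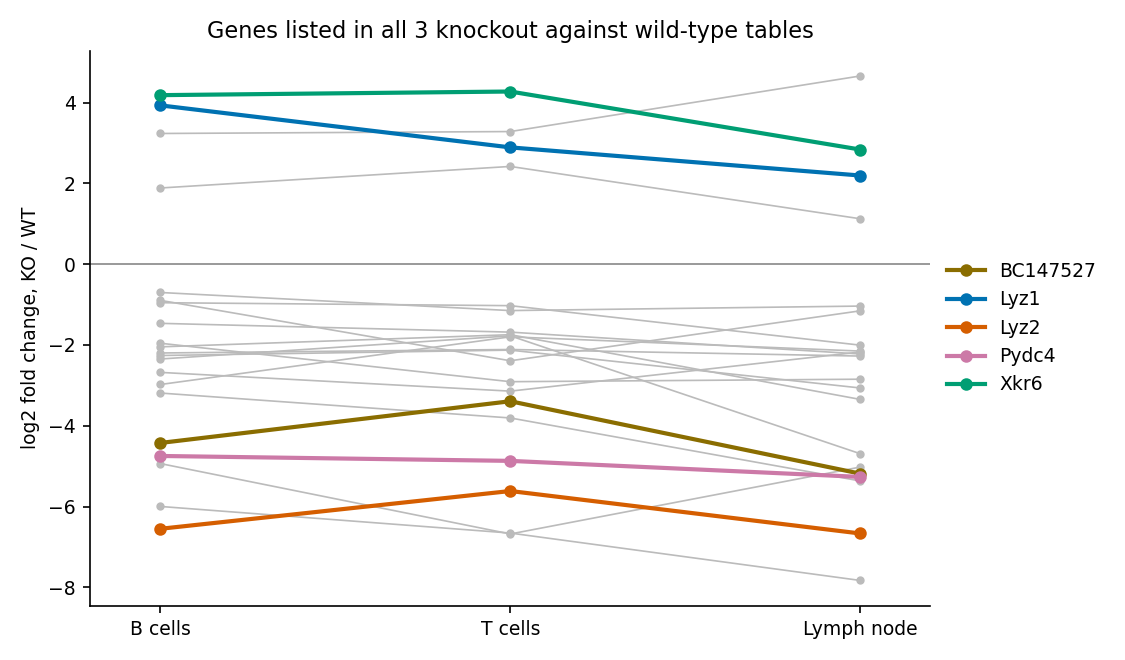
Log2 fold change of KO against wild type in B cells, T cells and lymph node for the genes listed in all 3 tables with a finite value in each; lines join the values of 1 gene. Lyz1 and Xkr6 are above 0 throughout, and Lyz2, Pydc4 and BC147527 are below 0 throughout; grey lines are the other genes.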

How the data were processed

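Each table the authors deposited lists only genes with an adjusted p-value under 0.05, giving the mean of normalised reads in each group (a signal, not whole counts), a log2 fold change and a p-value. The aligner, counting tool, annotation and strand setting are not given in the sources used here. CASAVA 1.8, DESeq without a version and the build GRCm38 (mm10) come from the submitters' processing notes. The log2 fold change was recomputed from the deposited means, because cells of the B and T cell tables held a spreadsheet error. How many genes the authors tested followed from each p, its rank and its adjusted value. Total reads per library are unknown; recovered size factors ran from 0.842 to 1.19.

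Each mean was written as whole reads of 2 libraries times a step per library, with the steps searched over all genes of the group. The method was tested on simulated means. All 16 values of the pair were recovered. Where 1 group's reads could be recovered from a pair of tables, they were identical in 430 of 430 cases. Recovered libraries have no replicate number and entered no test. Sequences were aligned with Biopython 1.88 and values computed with numpy 2.4.6 in Python 3.11.15.

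The pair and the gene lists were chosen with earlier results of these data known. Genes set to be named were the pair, the 5 nearest to each copy by distance of fold changes, and any listed relative or neighbour. For each gene list with 3 or more called members, up to 4 with the lowest adjusted p were added. Only some of those from the lists are named in the text, picked with their values known. Other genes were also named after their values were seen. Alternatives were 1 added read, reads without size factors, leaving out each library, a stricter threshold, a minimum mean of 50 and, added after seeing the data, reads per transcript length.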

Additional observations from a re-analysis of the deposited data

How the results depend on the processing

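No paired analysis was possible because the tables hold group means without replicate numbers and the recovered libraries carry none. In the 4 tables that list the pair, all 72 alternative values of the log2 fold changes of Lyz1, Lyz2 and their sum had the direction reported. Without size factors the log2 fold change of the sum was -4.36 in B cells and -0.75 in lymph node. With 1 library left out, Lyz2 ran from -8.95 to -5.69 in B cells, and from -1.80 to 0.48 in lymphoma against knockout lymph node, where it reversed without the node library with 451 reads. Under the authors' adjusted p of 0.01, 9 of the 16 macrophage genes called in T cells were left. The share of all genes listed for T cells that is left at that threshold was not computed. Adding 1 read, or dividing by transcript length, moved no value of the pair by more than the spread between libraries. Low reads limit Lyz2 in KO lymphocytes and Lyz1 in wild-type B cells, at 3 to 29 and 4 to 7 reads a library.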

Other observations

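The 14 named genes listed in B cells, T cells and lymph node were looked up in RefSeq on GRCm38, and 11 were matched by symbol. Pydc3, Pydc4 and Pyhin1, all lower in knockout, were not matched. Their chromosome is not given here, so the positions below leave them out. Of the matched genes beside the lysozyme pair on chromosome 10, 3 lay on chromosome 13. These were Unc5a (chr13:54945151-55006018), F2rl1 (chr13:95511718-95525240) and BC147527 (chr13:120300233-120308843), all lower in knockout. Xkr6 (chr14:63606530-63845706), higher in knockout, and Epsti1 (chr14:77904239-78002656), lower, lay on chromosome 14. Gas5 (chr1:161034601-161038539) lay on chromosome 1, Klra1 on 6, Rnf144a on 12 and Serinc3 on 2, all lower. The share of all listed genes on each chromosome was not computed, so no grouping by chromosome is read from these positions.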
